A study of Homo sapiens with 6 samples.

Results

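Peptidases that act on peptide ligands and surface proteins were examined in RNA sequencing data from PC3 cells, an established human line that came from a bone metastasis of prostate cancer. The genes were a list of 9 (ANPEP, DPP4, MME, ECE1, LNPEP, ERAP1, ERAP2, ST14 and NPEPPS), found in the count table by symbol and Entrez identifier. In all, 8 of the 9 genes were among the 12703 genes in the table. ST14, which encodes the membrane serine protease matriptase, was not in the table and was not analysed here. The genes were chosen with the results of this contrast in view, ANPEP being selected on its lower count in GCNT1 overexpressing cells, so their fold changes are given as a description and support nothing on their own.

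The study compared 3 PC3 lines made with lentiviral particles carrying GCNT1 with 3 PC3 lines made with negative control particles, to search for genes that differ when GCNT1 is overexpressed. GCNT1 encodes the Golgi enzyme that adds the branch of core 2 O-glycans. Both groups therefore carried a stably integrated lentivirus, no further treatment was described, and the sources do not say whether each line was a pool or a clone. The 3 libraries of a group were labelled as biological replicates, and p-values set the difference between groups against the spread between these libraries. A difference between the lines of the 2 groups that did not come from GCNT1 cannot be told apart from one that did.

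Ectopeptidases sit in the plasma membrane with the catalytic domain outside the cell, where they remove residues from, or cut, hormones, chemokines and neuropeptides and so set how long such signals last. ANPEP, LNPEP, ERAP1, ERAP2 and NPEPPS are zinc aminopeptidases of one family, MME and ECE1 are zinc endopeptidases of another, and DPP4 is a serine exopeptidase of the prolyl group. ERAP1 and ERAP2 act inside the endoplasmic reticulum and NPEPPS in the cytosol, so the list reaches beyond the cell surface. In the prostate, ANPEP, DPP4 and MME are known as surface antigens of the normal epithelium.

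Total counts were between 11392213 and 13825704 per library. Levels are in CPM, read counts scaled to a common library size. The floor of 3 counts lay at 0.213 to 0.259 CPM, and it covers counting error only. GCNT1 itself had 9, 13 and 8 counts in the control libraries and 13, 16 and 35 counts in the overexpressing libraries. Its mean was 0.812 ± 0.202 CPM (SD, n = 3) in the controls and 1.59 ± 0.772 CPM (SD, n = 3) in the overexpressing cells, with a log2 fold change of 0.98 (SE 0.37; adjusted p = 0.0362, edgeR quasi-likelihood test, Benjamini-Hochberg adjusted). This difference had the direction of the label at a low level, and the library labelled overexpression replicate 3 lay above the other 5. The sources do not say whether reads of the lentiviral GCNT1 sequence were counted on the GCNT1 gene, which was not tested here, so these counts may not hold the transgene in full. The authors also examined GCNT1 in their overexpressing PC3 cells by real-time PCR, ELISA and immunocytochemistry, with values not used here. Of the epithelial markers, 5 of 5 were in the table. In the controls KRT8, KRT18 and KRT19 were at 222, 252 and 369 CPM, while EPCAM and CDH1 were low, at 5.54 and 3.59 CPM. KLK3 was not in the table, nor were the leukocyte gene PTPRC and the endothelial genes CDH5 and VWF. Of the measured markers, KRT19 and CDH1 (epithelial), TMPRSS2 (luminal), COL1A1 and COL3A1 (fibroblast, 2 of 6 measured) and KDR (endothelial) were lower in GCNT1 overexpressing cells by the call rule given below, PECAM1 (endothelial) was higher, and CD68 (leukocyte, 1 of 5 measured) was not called. Their part in the results was not tested. In bulk RNA, fewer cells with a transcript and less of it per cell cannot be told apart.

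Genes were called when the adjusted p was under 0.05 and the absolute log2 fold change over 0.58. Over the 12703 genes 19.3% were called, 8.28% higher and 11.1% lower in GCNT1 overexpressing cells. Of the 8 measured peptidase genes 3 were called, ANPEP and DPP4 lower and MME higher, a share of 37.5% that was in part set by how the list was chosen and from which nothing is read. The median log2 fold change of the 8 genes was 0.19, against 0.00 for all genes. The 2 groups of libraries did not overlap for 6 of the 8 genes, as was also so for 62.5% of all genes.

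ANPEP encodes aminopeptidase N (CD13), which removes neutral residues from the N-termini of small peptides such as the angiotensins and enkephalins. It had 5481, 5903 and 5726 counts in the control libraries, or 435.5, 474.1 and 484.3 CPM. In the overexpressing libraries it had 1285, 1536 and 1647 counts, or 111.0, 111.8 and 116.7 CPM. Every overexpressing library lay far below every control, and within each group the libraries lay close together, with a coefficient of variation of 5.54% in the controls and 2.73% in the overexpressing cells. The mean went from 464.7 ± 25.7 to 113.2 ± 3.09 CPM (SD, n = 3 each), a 4.11-fold lower level. The log2 fold change was -2.04 (SE 0.05; 95% interval -2.15 to -1.92), at percentile 2.15 of the log2 fold changes of all genes. ANPEP lies at chr15:89784895-89814852 on the minus strand of hg38, and no annotated GENCODE gene overlapped it. Its longest coding transcript shared no stretch of 75 bases at 97% identity with another gene, and its other exons were not searched.

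**Figure D1:**
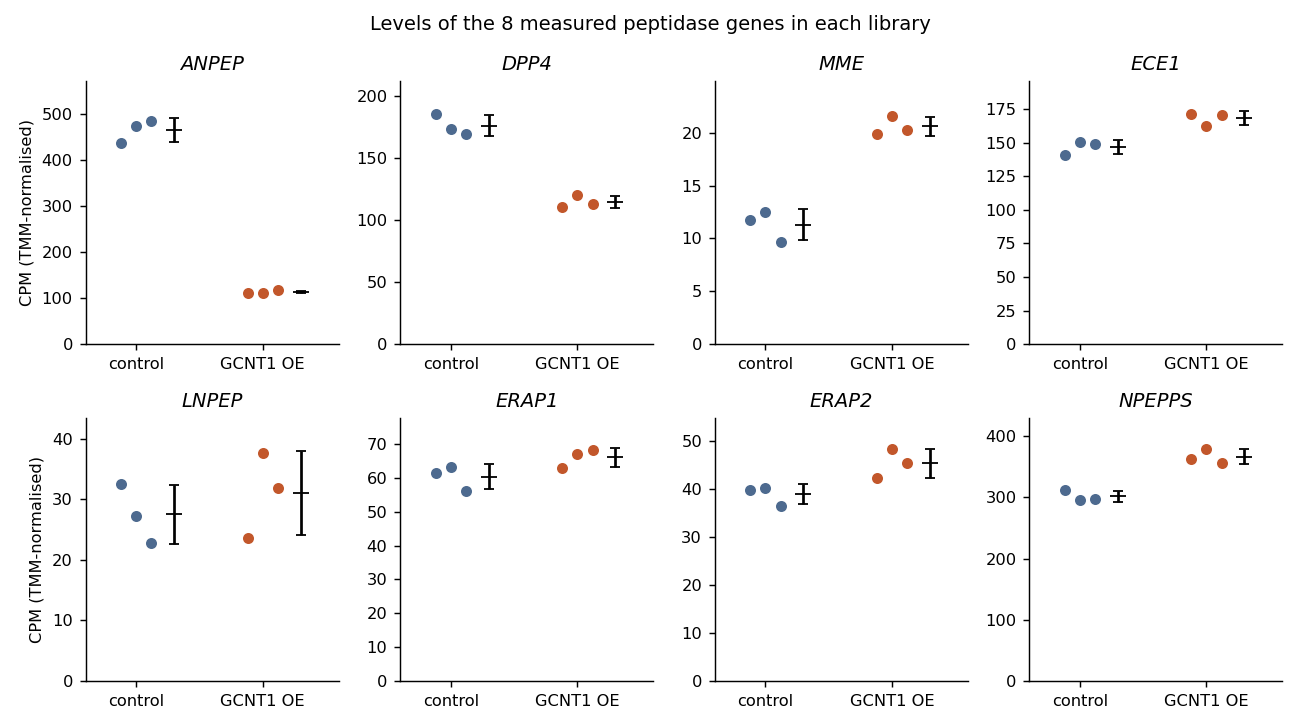
TMM-normalised CPM (linear axes from 0) of the 8 measured peptidase genes, with 1 point per library and the mean and SD of 3 libraries beside each group. ANPEP sits at 435.5 to 484.3 CPM in the controls and at 111.0 to 116.7 CPM in the GCNT1 overexpressing (OE) cells, DPP4 is lower and MME higher with no overlap, and the LNPEP and ERAP1 groups overlap.

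ANPEP is known to be transcribed from a pair of promoters, a distal one described in myeloid cells and fibroblasts and a proximal one described in epithelial cells, and RefSeq gives a start for each. The starts are 8224 bases apart, and counts per gene cannot tell from which of them the reads came. The 250 bases upstream of each ANPEP start are printed below from RefSeq (GRCh38.p14), 5′ to 3′ on the strand of the gene, together with those of DPP4, which was also lower, and of MME, which was higher and has windows at 4 starts, of which the one furthest upstream is shown. The 4 MME starts lie inside the RefSeq span of the gene, which begins further upstream. Capitals mark matches on either strand to one of 6 motifs. The letters TATAA stand for a TATA box, the letters CCAAT for the box of that name, and GGGCGG for a GC box. The letters GTTAAT stand for an HNF1 half-site, the letters CACGTG for an E-box, and the consensus TGANTCA for an AP-1 site. Start 1 of ANPEP lies next to chr15:89814853-89815102, start 2 of ANPEP next to chr15:89806629-89806878, start 1 of DPP4 next to chr2:162074216-162074465 (minus strand for all of these), and start 1 of MME next to chr3:155079422-155079671 (plus strand).
ANPEP start 1: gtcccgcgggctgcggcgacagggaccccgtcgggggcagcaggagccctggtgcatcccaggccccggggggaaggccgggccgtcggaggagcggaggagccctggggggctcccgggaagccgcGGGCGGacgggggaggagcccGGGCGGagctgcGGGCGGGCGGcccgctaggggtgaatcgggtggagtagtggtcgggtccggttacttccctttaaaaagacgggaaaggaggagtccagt
ANPEP start 2: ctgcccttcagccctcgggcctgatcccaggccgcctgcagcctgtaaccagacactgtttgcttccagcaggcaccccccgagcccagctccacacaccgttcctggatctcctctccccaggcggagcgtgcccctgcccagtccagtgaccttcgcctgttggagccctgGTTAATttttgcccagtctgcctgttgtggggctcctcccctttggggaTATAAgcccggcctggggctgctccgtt
DPP4 start 1: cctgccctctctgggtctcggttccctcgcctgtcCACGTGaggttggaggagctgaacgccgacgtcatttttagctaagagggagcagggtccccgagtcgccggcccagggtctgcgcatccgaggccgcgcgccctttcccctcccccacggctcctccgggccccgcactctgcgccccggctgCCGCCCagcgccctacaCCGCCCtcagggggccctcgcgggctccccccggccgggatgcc
MME start 1: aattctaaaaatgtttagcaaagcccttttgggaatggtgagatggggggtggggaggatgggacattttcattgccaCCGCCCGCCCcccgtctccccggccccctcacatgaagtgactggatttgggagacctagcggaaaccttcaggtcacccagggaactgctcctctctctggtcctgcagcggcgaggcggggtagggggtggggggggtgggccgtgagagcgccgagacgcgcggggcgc

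The windows differed in composition and in the motifs they held. The distal ANPEP window was 74.0% G and C with 26 CpG dinucleotides and 4 GC boxes, the last pair of which overlap, and it held no match to the other motifs. The proximal ANPEP window was 64.4% G and C with 9 CpG dinucleotides, a TATA box from 28 to 24 bases before the start and an HNF1 half-site from 77 to 72 bases before it. The DPP4 window resembled the distal one, with 73.6% G and C, 26 CpG dinucleotides, 2 GC boxes on the opposite strand and an E-box from 215 to 210 bases before the start. The window of MME start 1 held 2 overlapping GC boxes on the opposite strand and was 63.2% G and C with 15 CpG dinucleotides. The windows of the other MME starts, not printed, were 73.6%, 71.6% and 69.6% G and C with 25, 23 and 17 CpG dinucleotides, so that of start 2 was as rich in G and C as the DPP4 window. Among 35116 RefSeq windows of the same length the median was 58% G and C, and a GC box was in 42.6%, a CCAAT box in 32.0%, a TATA box in 18.9%, an AP-1 site in 6.57%, an E-box in 6.34% and an HNF1 half-site in 6.23%. These matches describe the letters only and say nothing of binding in PC3 cells.

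DPP4 encodes dipeptidyl peptidase 4 (CD26), which removes dipeptides after proline or alanine from incretins and from chemokines such as CXCL12. It had 2331, 2154 and 1999 counts in the control libraries, or 185.2, 173.0 and 169.1 CPM. The overexpressing libraries had 1278, 1643 and 1596 counts, or 110.4, 119.6 and 113.1 CPM. The highest overexpressing library was below the lowest control, and the shift was smaller than that of ANPEP. The mean went from 175.8 ± 8.42 to 114.4 ± 4.72 CPM (SD, n = 3 each), 1.54-fold lower, with a log2 fold change of -0.62 (SE 0.05; 95% interval -0.74 to -0.50). DPP4 (chr2:161992245-162074215, minus strand) thus lay just past the fold threshold, and its call was lost with library size alone as the scaling (-0.56) and without control replicate 1 (-0.57). A divergent noncoding transcript, DPP4-DT, overlaps its start, and 2.1% of its longest coding transcript was shared with that gene.

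MME encodes neprilysin (CD10), an endopeptidase that inactivates enkephalins, endothelins, bombesin-like peptides and neurotensin. It was counted at 148, 156 and 114 in the control libraries, or 11.76, 12.53 and 9.64 CPM. In GCNT1 overexpressing cells it was counted at 230, 297 and 286, or 19.87, 21.62 and 20.27 CPM. It was thus the one called gene of the list that was higher, with no overlap between groups, and it was also the one with the lowest count. The mean went from 11.3 ± 1.5 to 20.6 ± 0.916 CPM (SD, n = 3 each), 1.82-fold higher, with a log2 fold change of 0.86 (SE 0.10; 95% interval 0.64 to 1.08). MME (chr3:155024202-155183729, plus strand) is overlapped by the antisense gene MME-AS1, and the sources do not state whether the counting used strand.

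ECE1 encodes endothelin-converting enzyme 1, which cuts big endothelin to the active peptide. Its counts of 1773, 1870 and 1762 in the control libraries were 140.9, 150.2 and 149.0 CPM. Its counts of 1987, 2227 and 2406 in the overexpressing libraries were 171.7, 162.1 and 170.5 CPM. All 3 overexpressing libraries were above the controls, by an amount that stayed under the fold threshold. The means were 146.7 ± 5.07 and 168.1 ± 5.22 CPM (SD, n = 3 each), and the log2 fold change was 0.20 (SE 0.05; 95% interval 0.09 to 0.30). ECE1 lies at chr1:21217250-21345504 on the minus strand and is overlapped by ECE1-AS1 on the other strand.

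Of the aminopeptidases that shape peptides for antigen presentation, ERAP1 and ERAP2 trim peptides in the endoplasmic reticulum to the length that MHC class I molecules hold, and LNPEP, the insulin-regulated aminopeptidase or oxytocinase, does so in endosomes. ERAP1 had 61.50, 63.29 and 56.17 CPM in the control libraries and 62.99, 67.05 and 68.18 CPM in the overexpressing ones, from 664 to 962 counts. The groups overlapped, and the log2 fold change was 0.13 (SE 0.06; 95% interval -0.0040 to 0.27). ERAP2 had 39.89, 40.24 and 36.46 CPM in the controls and 42.25, 48.34 and 45.43 CPM in the overexpressing libraries, from 431 to 664 counts. Its groups did not overlap, but its log2 fold change of 0.22 (SE 0.07; 95% interval 0.07 to 0.38) stayed under the fold threshold. LNPEP had 32.50, 27.23 and 22.84 CPM in the controls and 23.68, 37.64 and 31.89 CPM in the overexpressing libraries, from 270 to 517 counts. It was the gene with the widest spread within groups, with a coefficient of variation of 17.6% and 22.6%, and its groups overlapped. Its log2 fold change was 0.18 (SE 0.15; 95% interval -0.14 to 0.50), so that a fall, no difference and a moderate rise were all within the interval.

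NPEPPS encodes the puromycin-sensitive aminopeptidase, a cytosolic enzyme that degrades peptides left by the proteasome. It had 312.3, 295.5 and 297.9 CPM in the control libraries, from 3522 to 3930 counts. It had 362.1, 379.6 and 356.1 CPM in the overexpressing libraries, from 4191 to 5214 counts. The groups did not overlap, and the log2 fold change of 0.28 (SE 0.05; 95% interval 0.18 to 0.38) was under the fold threshold. These counts are uncertain, since 48.4% of its longest coding transcript (2086 of 4309 bases) was shared at 97% identity or more with 4 other annotated genes, NPEPPSP1, NPEPPSP2 and another pseudogene as copies and KPNB1-DT as a gene that overlaps NPEPPS on the opposite strand. The share was 9.9% for ERAP1 and 3.7% for MME, in both only with genes that overlap them on the opposite strand, and 0.0% for ECE1, LNPEP and ERAP2.

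To set the genes side by side, CPM values were divided by the length of the merged exons in kilobases. On this scale ANPEP was the highest of the 8 genes in the control cells, at 92.1 ± 5.10 CPM per kilobase (SD, n = 3). It was followed by ECE1 at 20.1 ± 0.694 and NPEPPS at 19.7 ± 0.591, whose ranges overlapped, and then by DPP4 at 12.2 ± 0.583. ERAP1 at 7.59 ± 0.466, ERAP2 at 5.59 ± 0.300, LNPEP at 1.84 ± 0.323 and MME at 1.15 ± 0.151 made up the lower end, with no overlap between neighbours. In GCNT1 overexpressing cells ANPEP stood at 22.4 ± 0.612, beside ECE1 at 23.0 ± 0.714 and NPEPPS at 23.8 ± 0.794. The ranges of ANPEP and ECE1 overlapped there, as did those of ECE1 and NPEPPS. DPP4 at 7.93 ± 0.327 and ERAP1 at 8.32 ± 0.344 also overlapped, as did MME at 2.09 ± 0.0929 and LNPEP at 2.08 ± 0.469. On this scale the control cells thus had 1 gene well above the rest, and the overexpressing cells had none.

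**Figure D2:**
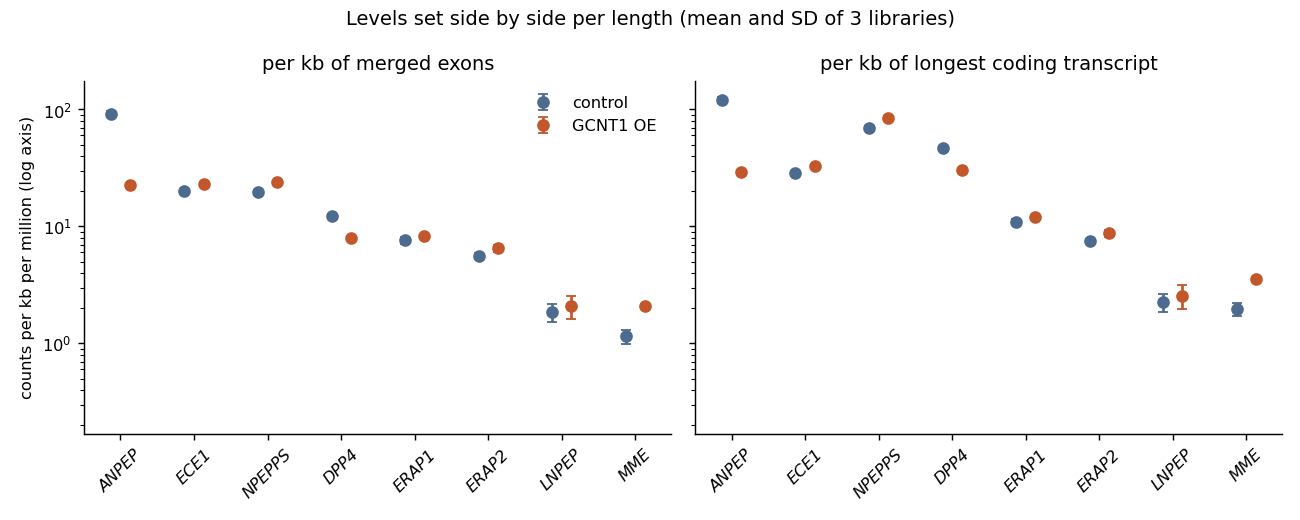
Mean and SD of 3 libraries of the CPM per kilobase (log axis) of each gene in control and GCNT1 overexpressing (OE) cells, per length of the merged exons on the left and of the longest coding transcript on the right. ANPEP is the highest gene in the controls on both scales (92.1 and 120.9) and lies among other genes of the list in the overexpressing cells (22.4 and 29.4).

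The order below ANPEP depended on the length used. Per kilobase of the longest coding transcript, a choice added after the data were seen, the control level was 120.9 ± 6.70 for ANPEP, 70.1 ± 2.11 for NPEPPS, 46.9 ± 2.25 for DPP4 and 28.8 ± 0.995 for ECE1. In the overexpressing cells NPEPPS was then the highest at 84.9 ± 2.83, and ECE1 at 33.0 ± 1.02, DPP4 at 30.5 ± 1.26 and ANPEP at 29.4 ± 0.804 came after it. Counts per gene do not show which transcripts were present, so neither scale is more than an approximation.

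The genes whose pattern over the 6 libraries was most like that of ANPEP were found by the distance between log2 CPM values centred on each gene's own mean. The smallest distance was that of ZNF334, a zinc finger gene, at 0.131, with 16, 20 and 20 counts in the controls and 0 in every overexpressing library. Against the mean of the floors of the 3 overexpressing libraries (0.259, 0.218 and 0.213 CPM) ZNF334 was at least 6.62-fold lower. ST3GAL1, a sialyltransferase that caps core 1 O-glycans, came next at 0.166 and went from 707.2 ± 18.5 to 171.5 ± 9.998 CPM (log2 fold change -2.04). ELOVL2, a fatty acid elongase, at a distance of 0.179, UBE2QL1 at 0.182 and SLC14A1, a urea transporter, at 0.187 had log2 fold changes of -2.28, -1.99 and -2.06. The distance, taken after 0.5 CPM was added, rests on 6 libraries in 2 groups, so a gene with a difference of like size on that scale and a small spread within groups scores as close. For ZNF334, at 0 in every overexpressing library, the added 0.5 CPM sets the size of the difference, so its place in this order is not read as likeness to ANPEP.

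The genes adjacent to ANPEP on chromosome 15 were higher in GCNT1 overexpressing cells, while ANPEP was lower. The analysed gene on one side, MESP1, had a log2 fold change of 0.66 (SE 0.14) and was called higher. AP3S2 on the other side, at 0.486 and 1.33 CPM, had a log2 fold change of 1.44 (SE 0.36) and was also called higher. It had few counts, 5, 9 and 4 in the controls and 14, 15 and 24 in the overexpressing libraries. Among the 50 analysed genes nearest to ANPEP 8 were called higher and 3 lower (8.28% and 11.1% of all genes), with a median log2 fold change of 0.27, so ANPEP lay 2.31 below it on the log2 scale. DPP4 lay 0.70 below the median of its own 50 neighbours (0.08), between the pseudogene AHCTF1P1 at -0.28 and IFIH1, a sensor of viral RNA, which was called higher at 1.57 (SE 0.11). MME lay 0.75 above the median of its neighbours (0.11), next to DHX36 at 0.19 and PLCH1 at 0.58, the latter called just past the threshold. ECE1 stood between EIF4G3 at -0.27 and NBPF3 at -0.28, and NPEPPS between MRPL45P2 at 0.06 and KPNB1 at -0.25.

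ERAP1, ERAP2 and LNPEP lie side by side on chromosome 5 (chr5:96760813-96935854, minus strand; chr5:96875984-96919716, plus strand; chr5:96936080-97037513, plus strand), with no analysed gene between them. CAST, which encodes the calpain inhibitor calpastatin and overlaps ERAP1 on the opposite strand by 18786 bases in GENCODE, had a log2 fold change of -0.45 (SE 0.05). RIOK2 on the other side had 0.05 (SE 0.06). The 3 peptidase genes stood 0.35 to 0.45 above the median of their 50 neighbours (-0.22). ERAP2 lies within an antisense noncoding gene and, in RefSeq, within the longest form of ERAP1 on the other strand, so reads of these genes could be told apart only if strand was used in counting.

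**Figure D3:**
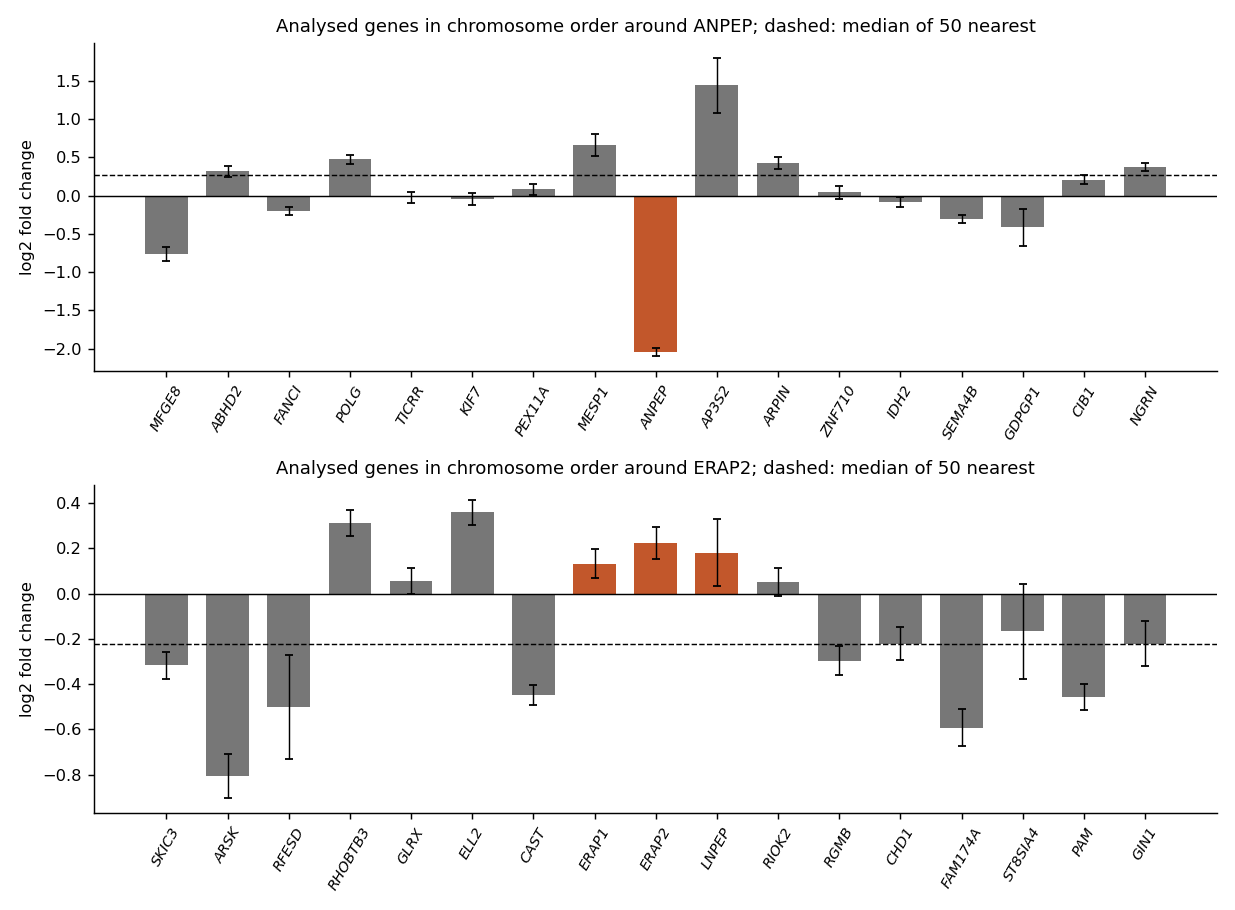
Log2 fold change (GCNT1 overexpression over control) of the analysed genes in chromosome order around ANPEP (upper panel) and ERAP2 (lower panel), with the standard error as bars and the median of the 50 nearest genes as a dashed line. ANPEP at -2.04 stands beside MESP1 at 0.66 and AP3S2 at 1.44, while ERAP1, ERAP2 and LNPEP lie between 0.13 and 0.22, above a median of -0.22.

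Peptidases of the same families, and other exopeptidases of the cell surface and cytosol, were then listed with earlier results of these data known. Of 69 such genes, 28 of them in the list of other exopeptidases, 35 were in the table and 10 were called (28.6%, against 19.3% of all genes), 6 higher and 4 lower (8.28% and 11.1% of all genes), with a median log2 fold change of 0.00. Among the other aminopeptidases of the ANPEP family, 6 of 7 were measured and 3 were called, in each case higher. TRHDE, which inactivates thyrotropin-releasing hormone, went from 25.02 ± 2.003 to 38.4 ± 3.11 CPM (log2 fold change 0.62, adjusted p = 3.16e-05, edgeR quasi-likelihood test with Benjamini-Hochberg adjustment, as for the other adjusted p-values below). AOPEP went from 4.48 ± 0.298 to 10.4 ± 0.740 CPM (1.21, adjusted p = 2.99e-06, edgeR) and LVRN, or laeverin, from 0.952 ± 0.128 to 3.35 ± 0.337 CPM (1.81, adjusted p = 1.47e-05, edgeR). RNPEP, or aminopeptidase B, at -0.50, and LTA4H, the leukotriene A4 hydrolase, at 0.25, were under the fold threshold, as was RNPEPL1 at -0.35. ENPEP, the glutamyl aminopeptidase, was not in the table. No other measured gene of this family fell past the fold threshold, as ANPEP did.

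In the MME and ECE1 family, PHEX, which is known for its part in phosphate balance, went from 4.67 ± 1.13 to 12.2 ± 1.18 CPM (log2 fold change 1.38, adjusted p = 6.34e-06, edgeR). ECE2 was under the threshold at 0.39, and the other 3 genes listed were not in the table. Of the 8 measured prolyl peptidases related to DPP4 only DPP7, a lysosomal dipeptidyl peptidase, was called (12.5%, against 19.3% of all genes), at 52.0 ± 3.53 and 96.3 ± 9.80 CPM (0.89, adjusted p = 6.49e-07, edgeR). The cytosolic DPP8 and DPP9 had log2 fold changes of 0.32 and -0.04. FAP, the fibroblast activation protein and the nearest relative of DPP4, was not in the table.

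Of 18 membrane serine proteases listed beside ST14, only 2 were measured, and both were called lower, as were 11.1% of all genes. TMPRSS2, an androgen-regulated gene in the prostate, had 61, 49 and 45 counts in the controls and 19, 27 and 23 in the overexpressing libraries (log2 fold change -1.26, adjusted p = 9.25e-05, edgeR). TMPRSS15, or enteropeptidase, had at most 22 counts in any library (-1.23, adjusted p = 0.00635, edgeR). Among 17 other measured exopeptidases, the membrane-bound CPM, or carboxypeptidase M, went from 25.9 ± 1.25 to 15.8 ± 1.63 on the CPM scale (-0.71, adjusted p = 1.93e-05, edgeR). NAALADL2, a relative of the prostate-specific membrane antigen, was also lower (-0.90, adjusted p = 0.000112, edgeR), and CPZ, a secreted carboxypeptidase, was higher (0.75, adjusted p = 1.28e-06, edgeR). FOLH1, the gene of the prostate-specific membrane antigen itself, was not in the table.

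The genes that work with these peptidases were listed by role, also with earlier results known. Of 42 genes 25 were in the table and 8 were called (32%, against 19.3% of all genes), 2 higher and 6 lower (8.28% and 11.1% of all genes), with a median log2 fold change of -0.19. Among 13 measured substrates, receptors and inhibitors 5 were called, in each case lower. They were CXCR4, the receptor of the DPP4 substrate CXCL12; EDNRA, a receptor of the endothelins; NTSR1 and GRPR, the receptors of neurotensin and of gastrin-releasing peptide, both MME substrates; and SPINT2, an inhibitor of matriptase. The groups of libraries did not overlap for 9 of the 13, these 5 among them, nor for 62.5% of all genes.

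CXCR4 had 54, 51 and 55 counts in the controls and 1, 3 and 3 in the overexpressing libraries, a pooled ratio of 24.4 (95% exact interval 11.6 to 61.8, which covers counting error only and not the spread between libraries). EDNRA had 29, 34 and 37 counts against 8, 9 and 8 (log2 fold change -2.08, adjusted p = 1.53e-05, edgeR). The other 3 were far more abundant in counts per library. NTSR1 went from 225.7 ± 7.54 to 100.3 ± 6.05 CPM (-1.17, adjusted p = 1.72e-09, edgeR), GRPR from 175.4 ± 8.60 to 100.5 ± 17.0 CPM (-0.80, adjusted p = 9.69e-06, edgeR) and SPINT2 from 172.2 ± 7.81 to 94.4 ± 6.72 CPM (-0.87, adjusted p = 7.23e-08, edgeR). SPINT1, the other matriptase inhibitor, stood at 9.96 ± 1.57 and 10.9 ± 0.874 CPM with overlapping groups. F2RL1, a receptor that matriptase cleaves, went from 398.5 ± 18.9 to 317.5 ± 11.6 CPM, under the fold threshold at -0.33. EDN1, the gene of the endothelin precursor that ECE1 cuts, had 4 to 22 counts per library, with overlapping groups and a log2 fold change of 0.66 (SE 0.39). PRSS8, a serine protease that acts with matriptase, was not in the table.

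**Figure D4:**
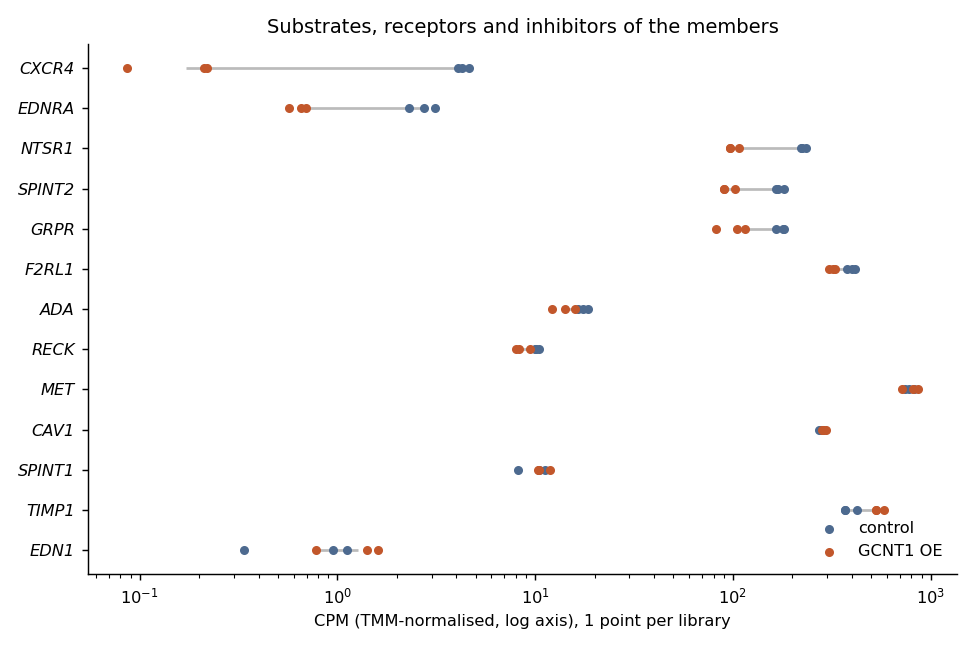
TMM-normalised CPM (log axis) of the 13 measured substrates, receptors and inhibitors of the peptidases, with 1 point per library. CXCR4, EDNRA, NTSR1, SPINT2 and GRPR lie lower in the 3 GCNT1 overexpressing (OE) libraries with no overlap, while SPINT1 and EDN1 overlap between the groups.

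In the MHC class I peptide pathway, in which ERAP1, ERAP2 and LNPEP act, 12 of 17 listed genes were measured and 3 were called (25%, against 19.3% of all genes). By the adjusted p alone 3 of the 12 were higher and 6 lower, as were 3593 and 3721 of all 12703 genes. The median log2 fold change of the 12 was -0.10. NLRC5, a transactivator of MHC class I genes, went from 2.14 ± 0.173 to 5.98 ± 1.16 CPM (log2 fold change 1.46, adjusted p = 2.86e-05, edgeR). TAPBPL, a peptide editor, had 6 to 9 counts per control library and 17 to 20 per overexpressing library (1.28, adjusted p = 0.00238, edgeR). HLA-B was lower, at 8.30 ± 0.243 and 4.87 ± 0.732 CPM (-0.78, adjusted p = 0.000256, edgeR), though reads of HLA genes are uncertain because of their near-identical copies. B2M, the light chain of MHC class I, went from 72.4 ± 0.298 to 106.6 ± 5.49 CPM and was just under the fold threshold at 0.56 (SE 0.06). CANX, TPP2, NRDC, PDIA3 and CALR were lower by the adjusted p and also under the fold threshold, at -0.42, -0.39, -0.33, -0.19 and -0.14. The peptide transporter genes TAP1 and TAP2 were not in the table.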

How the data were processed

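RNA of 3 control and 3 GCNT1 overexpressing PC3 lines was sequenced by the authors as stranded mRNA libraries with single reads of 75 bp. Reads were trimmed (Cutadapt), aligned to hg38 (HISAT2) and assigned to genes (featureCounts). The table that the authors deposited holds unnormalised counts, with a column for each library and no pooling. The annotation, the low-count filter and the strand setting are not given in the sources used here, and genes of low count had been left out, so that a gene absent from the table may still be transcribed.

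Groups and replicate numbers came from the sample labels. Counts were analysed with edgeR 4.0.16 in R 4.3.3 (filterByExpr, which kept all 12703 genes, TMM factors, quasi-likelihood test of the groups) with Benjamini-Hochberg adjustment over all genes. Levels are TMM-normalised counts scaled to library size (CPM). The pipeline was tested on simulated counts. Libraries of one group differed by more than sampling noise (chi-square per degree of freedom 1.65 to 5.65), so each was 1 sample. Depth was 11392213 to 13825704 counts per library.

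The peptidase genes, the other gene lists and the tests were chosen with earlier results of these data known. Named were all members, every called related or partner gene, a fixed set of others by role, the 5 genes most like ANPEP (log2 of CPM plus 0.5), the adjacent genes and GCNT1. Symbols, positions and upstream windows are from RefSeq (GRCh38.p14), overlaps and lengths from GENCODE 44, shared sequence from blastn 2.17.0. Protein features, though planned, were not analysed here, and part of what the gene lists give is not reported. The alternatives were limma-voom (limma 3.58.1), DESeq2 1.42.0, other scalings and filters, the replicate block, no fold threshold and each library left out in turn.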

Additional observations from a re-analysis of the deposited data

How the results depend on the processing

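ANPEP was called lower in all 13 alternatives run, with log2 fold changes of -2.07 to -1.98, and MME higher in all 13, from 0.76 to 0.94. DPP4 was lower in all 13 (-0.65 to -0.56) and called in 11; it missed the fold threshold with library size alone (-0.56) and without control replicate 1 (-0.57). ECE1, ERAP1, ERAP2, LNPEP and NPEPPS were called in none of the 13, and their log2 fold changes stayed above 0, the lowest being 0.03 for LNPEP. With the adjusted p alone and no minimum fold, 7314 genes were called in place of 2457, 6 of the 8 peptidases in place of 3, 24 related peptidases in place of 10, and 17 pathway and partner genes in place of 8, by the construction of that rule. With at least 10 counts in every library, 12045 genes were tested and 5 pathway and partner genes called, since CXCR4, EDNRA and TAPBPL have fewer. Library size alone moved the median of all genes by 0.06 and the share of calls that were higher from 42.8% to 51.1%. Same-numbered libraries did not deviate together (correlations of -0.32, 0.01 and -0.14), so they share only a number. With the replicate block 2423 genes were called, 2414 of them also without it, and ANPEP was at -2.04. The block changed no call among the 8 peptidases, and the counts of called related peptidases (10) and partner genes (8) were as before. Levels per kilobase depend on the length chosen, from 92.1 to 120.9 for ANPEP and from 19.7 to 70.1 for NPEPPS in the controls. Depth limits AP3S2, TMPRSS15, EDN1, CXCR4, EDNRA and TAPBPL, which have few counts.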

Other observations

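Other exopeptidases and chaperones near these pathways passed the adjusted p but not the fold threshold. METAP2, a methionine aminopeptidase, stood at 128.7 ± 3.07 CPM in the controls and 164.0 ± 4.47 CPM in GCNT1 overexpressing cells (SD, n = 3 each; log2 fold change 0.35, adjusted p = 4.4e-05, edgeR). The prolyl oligopeptidase relative PREPL stood at 134.4 ± 8.33 and 96.4 ± 6.34 CPM (-0.48, adjusted p = 2.8e-05, edgeR), and the lysosomal PRCP, a prolylcarboxypeptidase, at 164.1 ± 5.12 and 202.1 ± 10.1 CPM (0.30, adjusted p = 0.000265, edgeR). Calnexin (CANX), a chaperone of MHC class I in the endoplasmic reticulum, stood at 1207 ± 46.5 and 903.2 ± 30.1 CPM (-0.42, adjusted p = 4.3e-06, edgeR). TIMP1, an inhibitor of metalloproteinases, stood at 387.4 ± 34.2 and 548.5 ± 30.1 CPM (0.50, adjusted p = 1.5e-05, edgeR). These genes were chosen after their values were seen.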
